A study of Mus musculus with 2 samples.

Results

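The genes described here encode the enzymes that burn fatty acids in mitochondria and peroxisomes, the proteins that bring fatty acids to them, and the peroxins that build the peroxisome. They were chosen by symbol: a probe set belonged to the group when the array's annotation gave it a single gene symbol and that symbol was on a list of 40 genes. All 40 genes had such a probe set, with 78 probe sets in all, of 18193 genes and 34945 probe sets with a single gene on the array. By role 19 genes belong to mitochondrial oxidation, 7 to peroxisomal oxidation, 2 to fatty acid uptake and 12 to the peroxins.

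The RNA was taken from 3T3-L1, a line of mouse preadipocytes that fills with fat once differentiation is triggered. One culture received an siRNA against Phf21a (also called BHC80, a histone-binding subunit of a corepressor complex that contains LSD1) and the other a control siRNA named siGL3, after a firefly luciferase gene that mouse cells lack. Both were grown in DMEM with 25 mM glucose and 10% serum, received insulin, dexamethasone and 3-isobutyl-1-methylxanthine 24 h after transfection, and were harvested 24 h after that. Each group was 1 Affymetrix array, so no difference has a replicate error, no test between the groups was possible, and every comparison below is a description of 2 arrays.

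In mitochondrial beta-oxidation, a fatty acid is bound to carnitine to cross the inner membrane and is then shortened from its carboxyl end by repeated rounds of dehydrogenation, hydration, a second dehydrogenation and thiolytic cleavage. Peroxisomes run a related cycle on very long and branched chains with a separate set of enzymes, and they import those enzymes after synthesis through the peroxins. White fat cells mostly store fatty acids, and brown or beige fat cells burn them at a high rate.

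Values are MAS5 signals on a linear scale. A gene was called detected when the higher of its signals reached 51.3, the median of all signals on both arrays, and each detected gene was read from its brightest probe set, passing over probe sets ending in _x_at where another was detected. A gene is called higher or lower by its signal after Phf21a siRNA compared with control siRNA. The value after ± is the local spread, which is the distance from the 16th to the 84th percentile, divided by 2, of the log2 ratios of the 1000 detected genes nearest in signal. It measures scatter between these 2 arrays with any real differences in it, and it does not replace replicate cultures.

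Phf21a itself had a signal of 768 in the control array and 306 in the Phf21a siRNA array (log2 ratio -1.33 ± 0.51). Of 11 adipocyte and preadipocyte marker genes with a probe set 9 were detected, 4 above 0 and 5 below, with a median log2 ratio of -0.0033. Past 1.5-fold were Fabp4 (3502 and 5849) and Pparg (511.5 and 814), both higher, and the preadipocyte marker Dlk1 (12290 and 5940), which was lower. Adipoq, which encodes adiponectin (12.5 and 26.5), and Cebpa (44.97 and 11.97) were undetected. The other detected markers were within 1.5-fold. Cd36 (37.5 and 53.0) and Cebpd (809 and 864) were higher. Cebpb (7761 and 7743), Lpl (3614 and 3253), Pdgfra (2208 and 1973) and Col1a1 (4274 and 2867) were lower. Summed over these 11 genes, the marker signal was 35065 in the control array and 29394 in the Phf21a siRNA array, and without Dlk1 it was 22775 and 23455. Signals of different genes are not on a common scale, and the list mixes adipocyte with preadipocyte markers. Neither the median nor the sums therefore measure differentiation. The part of differentiation state in the ratios below was not tested. Defining markers of other cell types were mostly undetected, with 0 of 5 endothelial, 0 of 5 hepatocyte, 1 of 5 leukocyte and 2 of 5 skeletal muscle genes reaching the limit.

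Mitochondrial oxidation genes lay above the centre of the array, and the peroxins lay slightly below it. Over all 11301 detected genes the median log2 ratio was 0.03. The 19 mitochondrial genes, all detected, had a median of 0.30, and 17 of the 19 stood above the all-gene median. The 5 detected genes of peroxisomal oxidation had a median of 0.20 with members on both sides. The 12 peroxins, all detected, had a median of -0.08, and 3 of the 12 stood above the all-gene median. The mitochondrial median was thus 0.38 above that of the peroxins and 0.10 above that of peroxisomal oxidation. No test was applied to these distances, and how far a class median would scatter between cultures is unknown. In bulk RNA, fewer cells of a type and less RNA per cell cannot be told apart.

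Counts of members past a fold mark are given beside the share of all detected genes. At least 1.5-fold higher were 6 of the 38 detected genes, where 15.2% of all detected genes passed the same mark. At least 1.5-fold lower were 3 of the 38, where 13.9% of all detected genes did. At least 2-fold higher were 2 members (5.72% of all detected genes) and at least 2-fold lower 1 (5.47%). The count of higher genes is near the background, and large ratios were not frequent in either direction. The mitochondrial genes, 18 of 19 of them among the brighter genes, had an interquartile range of 0.16 to 0.45. It was -0.33 to 0.39 for all detected genes and -0.25 to 0.36 for the brighter genes. A log2 ratio above 0 was found for 25 of the 38 members and 52.2% of all detected genes, and one below 0 for 13 members and 47.8% of all detected genes. Under the 5 other scalings tried, Acadl was past 1.5-fold in 0, Acads in 1, Acot2 and Slc27a4 in 3, Acox3 in 4 and Slc27a1 in 5, and the count of higher members was 4 with median centring and 4 with loess. Acaa1a, Pex2 and Pex19 were past it downward in all 5. Median centring and both control scalings lower every log2 ratio, so a gene already past the mark downward had to stay past it. The same shifts take higher genes toward 0, so these counts do not compare the firmness of higher and lower genes. The members nearest the 1.5-fold mark were Acadl (0.59), Acads (0.61) and Pex2 (-0.61) on the far side and Cpt1a (0.55), Eci1 (-0.54) and Pex13 (0.52) on the near side.

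**Figure D1:**
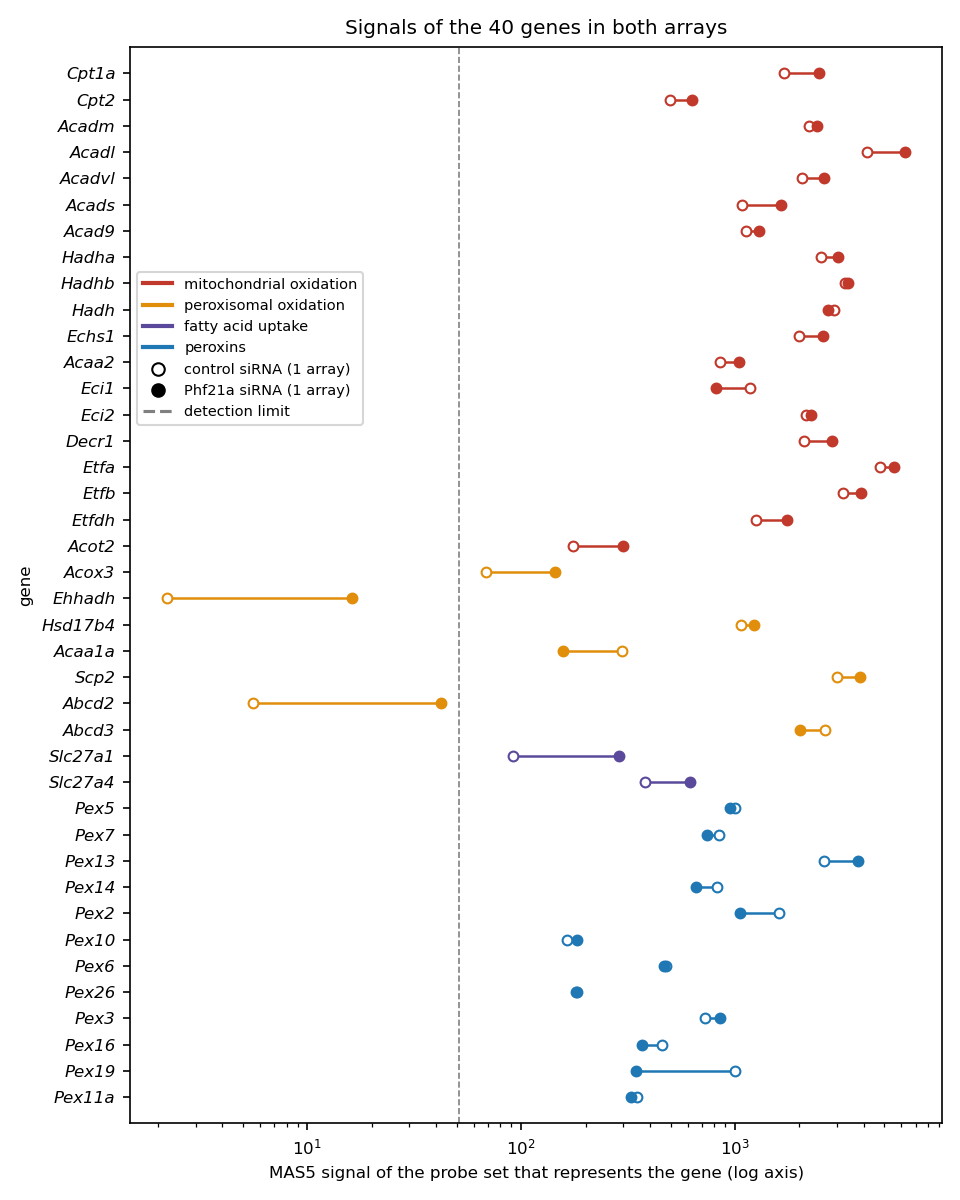
MAS5 signal (log axis) of the probe set that represents each of the 40 genes, with the control siRNA array as an open circle and the Phf21a siRNA array as a filled circle, 1 array each, and the detection limit of 51.3 dashed. Among mitochondrial genes the filled circle lies to the right for 17 of 19, whereas Pex19 moves left from 995 to 346, and Ehhadh and Abcd2 stay under the limit; signals of different genes are not on a common scale, and scaling to poly-A controls turns most of the small differences around.

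The scaling between the arrays sets the zero of these ratios. The deposited values give both arrays a trimmed mean of 500, which fixes the total. The poly-A control RNAs, bacterial transcripts that are usually added to the sample before labelling, read higher in the Phf21a siRNA array by a median log2 of 0.73 over 24 probe sets, and the hybridisation controls by 0.23 over 18. Scaling to the poly-A controls moved the median of all detected genes to -0.70 and left Slc27a1 (0.92), Acox3 (0.34) and Acot2 (0.06) as the 3 members above 0. Scaling to the hybridisation controls moved it to -0.20 and left 17 of 38 members above 0. Distances between classes, and between a class and all genes, are the same under both, so directions below hold relative to the bulk of detected genes and not as amounts of RNA per cell. Any log2 ratio between 0 and 0.73 given below, of members or of other genes, falls below 0 with the poly-A scaling.

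**Figure D2:**
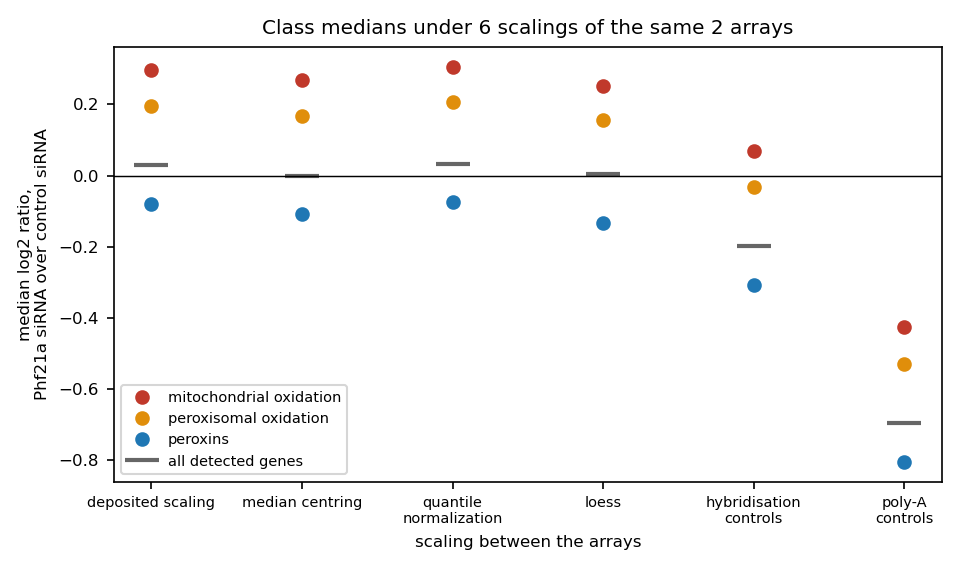
Median log2 ratio (Phf21a siRNA over control siRNA) of 3 classes and of all detected genes (grey dashes) under 6 scalings of the same 2 arrays. Median centring and both control scalings move all genes alike and cannot change the order of the classes, which was also the same with quantile normalization and loess; the mitochondrial median goes from 0.30 under the deposited scaling to -0.43 under poly-A control scaling.

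The carnitine shuttle came out higher on its main probe sets. Cpt1a encodes the outer membrane carnitine palmitoyltransferase that commits long-chain fatty acids to oxidation, and its signal was 1698 in the control array and 2477 in the Phf21a siRNA array (log2 ratio 0.55 ± 0.46). Its other probe sets gave 0.53 (296 and 428) and 0.67 (162 and 258), so all 3 were higher by a similar amount. Both of these others end in _x_at, a suffix for probe sets whose probes can bind other transcripts. Cpt2, the inner membrane enzyme that returns the chain to coenzyme A, read 496 and 627 (0.34 ± 0.52). A dim second probe set of Cpt2 went the other way, from 62.3 to 33.3, and the latter is under the detection limit.

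The acyl-CoA dehydrogenases, which open each round of the cycle and are graded by chain length, were all above the all-gene median. Acadl, the long-chain enzyme, read 4151 and 6245 (0.59 ± 0.34). Acads, the short-chain enzyme, read 1077 and 1643 (0.61 ± 0.46). Both exceeded their local spread, but both turn to -0.14 and -0.12 when the arrays are scaled to the poly-A controls. Acadvl, the membrane-bound very-long-chain enzyme, read 2059 and 2620 (0.35 ± 0.44), within its spread. Acadm, the medium-chain enzyme, read 2229 and 2424 (0.12 ± 0.43) and so hardly differed. Acad9, which also helps assemble respiratory complex I, read 1123 and 1295 (0.21 ± 0.46), and its second detected probe set read 386 and 334 (-0.21). The 5 dehydrogenases thus ranged from 0.12 to 0.61, with the long-chain and short-chain enzymes highest and the medium-chain enzyme lowest.

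The enzymes of the later steps had a median of 0.26, against 0.35 for the dehydrogenases. Hadha and Hadhb encode the alpha and beta subunits of the trifunctional protein, which carries out the last 3 reactions on long chains. Hadha read 2526 and 3022 (0.26 ± 0.43) and Hadhb 3261 and 3381 (0.05 ± 0.40). The other Hadhb probe sets gave 0.13 and 0.23. Hadh, the dehydrogenase for shorter chains, read 2919 and 2712 (-0.11 ± 0.42) on the probe set that represents it. A brighter Hadh probe set ending in _x_at read 6002 and 6944 (0.21) and a dim one 126 and 88.4 (-0.51), so the direction of Hadh depends on the probe set. Echs1, the short-chain enoyl-CoA hydratase, read 1987 and 2568 (0.37 ± 0.44). Acaa2, the mitochondrial thiolase, read 850 and 1045 (0.30 ± 0.48), and its 3 probe sets lay close together between 0.30 and 0.38. None of these 5 genes exceeded its local spread, which 18.3% of all detected genes did upward and 14.8% downward.

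Hadha and Hadhb are transcribed away from each other from starts 272 bases apart, and the stretch between the starts is shown because it lies upstream of a pair of members. It lies at chr5:30154981-30155252 in the RefSeq annotation of GRCm38.p6 and is printed on the plus strand, with Hadha leaving to the left and Hadhb to the right; capitals mark GGGCGG, the core of the GC box.
Hadha-Hadhb: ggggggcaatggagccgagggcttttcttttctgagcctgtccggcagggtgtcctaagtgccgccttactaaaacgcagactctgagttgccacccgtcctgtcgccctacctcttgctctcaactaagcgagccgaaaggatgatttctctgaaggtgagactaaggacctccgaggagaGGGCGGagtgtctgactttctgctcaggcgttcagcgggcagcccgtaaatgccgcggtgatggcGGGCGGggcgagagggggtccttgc
The stretch holds 60.3% G and C and 2 copies of GGGCGG, searched on both strands, and 0 copies of CCAAT, which 37.4% of all promoter windows hold. Of all promoter windows, cut to their first 272 bases, 34.3% hold GGGCGG. Those windows, uncut, had a median of 52.7% G and C, and neither share was matched for it. The log2 ratios of the pair, 0.26 and 0.05, differ by less than either local spread. Of the other members with a measured head-to-head neighbour, Pex13 (0.52 ± 0.41) and Pus10 (1709 and 1340, -0.35 ± 0.47), with starts 108 bases apart, differed in direction. Etfdh (0.48 ± 0.47) and 4930579G24Rik (1207 and 1519, 0.33 ± 0.46), with starts 311 bases apart, had the same direction.

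The auxiliary enzymes, which deal with double bonds in unsaturated chains, were the mixed part of the mitochondrial class. Decr1, the dienoyl-CoA reductase, read 2110 and 2832 (0.42 ± 0.42), while its dimmer probe set was level at 197 and 191 (-0.05). Eci1, the mitochondrial enoyl-CoA isomerase, was the lowest gene of the class at 1178 and 811 (-0.54 ± 0.47), and it had a single probe set. Eci2, an isomerase found in peroxisomes as well as mitochondria, read 2146 and 2271 (0.08 ± 0.44). Eci2 thus hardly differed between the arrays, while Eci1 was lower by more than its local spread.

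Electrons from the dehydrogenases leave through the electron transfer flavoprotein, and its 3 genes were all above the all-gene median. Etfa and Etfb, its subunits, read 4754 and 5546 (0.22 ± 0.34) and 3193 and 3882 (0.28 ± 0.39). Etfdh, the oxidoreductase that passes the electrons to ubiquinone, read 1257 and 1752 (0.48 ± 0.47). Acot2, a mitochondrial thioesterase that frees fatty acids from coenzyme A, had the highest ratio of the class at 174 and 300 (0.79 ± 0.59). That value rests on 1 probe set, since the second went from 101 to 76.4 (-0.41). A probe set annotated to both Acot2 and its close relative Acot1 read 355 and 456 (0.36). Cross-hybridisation between Acot1 and Acot2 was not tested.

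In all, 6 of the 19 mitochondrial genes were higher by more than their local spread (Cpt1a, Acadl, Acads, Decr1, Etfdh and Acot2) and Eci1 was lower by more than it. Among all detected genes 18.3% were higher and 14.8% lower by more than their spread.

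**Figure D3:**
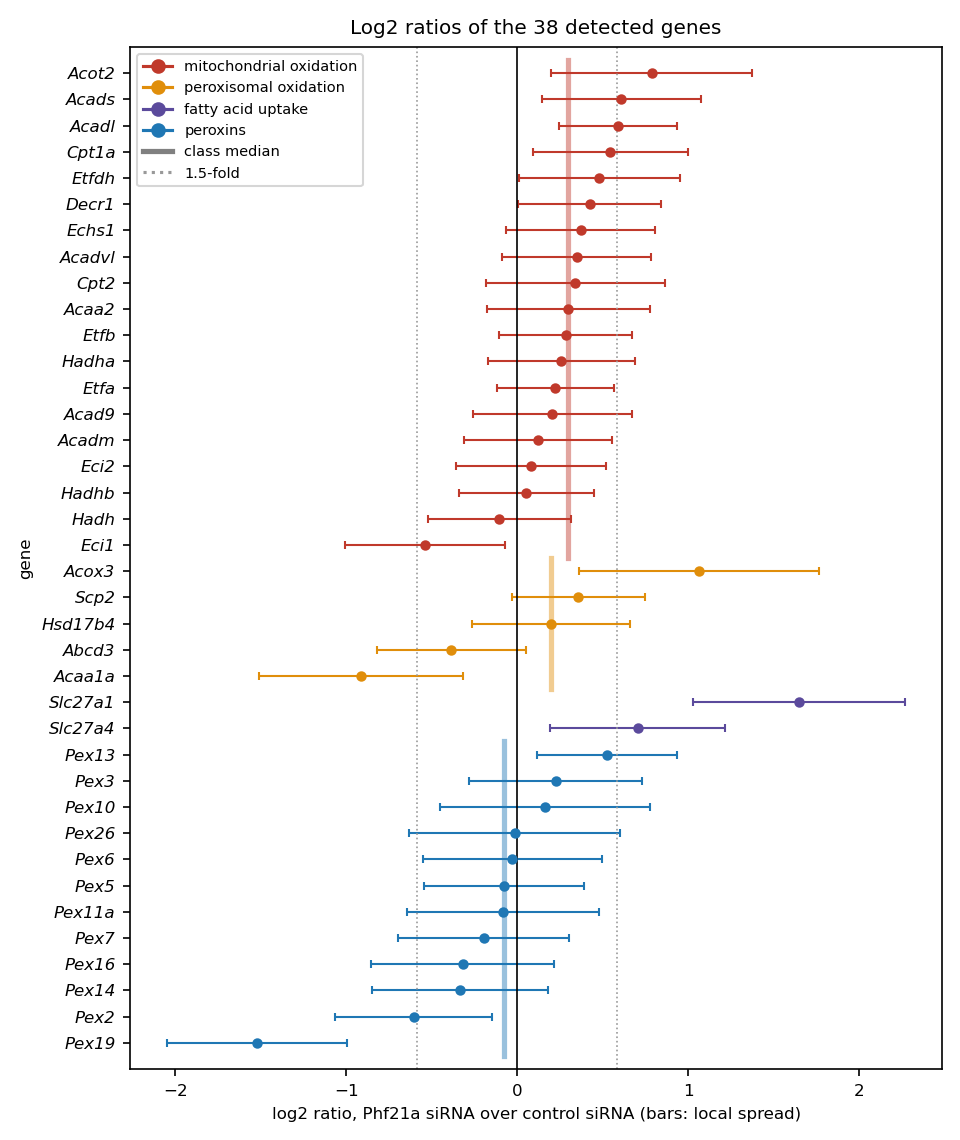
Log2 ratio of each of the 38 detected genes, ordered within its class; bars are the local spread, thick vertical lines the class medians (0.30 for mitochondrial oxidation, 0.20 for peroxisomal oxidation and -0.08 for peroxins), and dotted lines mark 1.5-fold. Most mitochondrial genes sit between 0 and the upper dotted line, and Pex19 and Slc27a1 are the extremes at -1.52 and 1.65; scaling to poly-A controls moves every point 0.73 to the left, which puts all but 3 below 0.

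Peroxisomal oxidation had no common direction. Acox3, an acyl-CoA oxidase that starts the peroxisomal cycle on branched chains, read 68.8 and 144 (1.06 ± 0.70). The control signal is close to the detection limit, and the other Acox3 probe set was undetected (5.41 and 9.04). Ehhadh, the bifunctional enzyme of the next steps, was undetected at 2.21 and 16.2, so no ratio is given. Hsd17b4, the second bifunctional enzyme, read 1067 and 1222 (0.20 ± 0.46), and a brighter probe set ending in _x_at gave 0.41. Scp2, a thiolase and sterol carrier, read 3016 and 3861 (0.36 ± 0.39), with its other detected probe sets at 0.32 and 0.18.

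Acaa1a, the thiolase that closes the peroxisomal cycle, was the lowest of these enzymes. It read 297 and 157 (-0.92 ± 0.60), and its second probe set 61.4 and 41.1 (-0.58), where the latter signal is under the detection limit. Both probe sets end in _x_at, a suffix for probe sets whose probes can bind other transcripts. A pair of probe sets annotated to Acaa1a together with its near-identical neighbour Acaa1b read 814 and 369 (-1.14) and 393 and 223 (-0.81). All 4 probe sets were lower, but they do not tell the 2 genes apart. The sole probe set of Acaa1b alone was undetected (5.71 and 19.4).

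The fatty acid carriers of the peroxisomal membrane gave little. Abcd3, which imports long and branched acyl chains, read 2635 and 2018 (-0.39 ± 0.44), within its spread. Abcd2, a carrier of very long chains, was undetected on all 4 probe sets, the brightest at 5.57 and 42.3. The limit of detection therefore leaves the order of Abcd2 between the arrays unknown.

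Both genes of fatty acid uptake were higher under the deposited scaling. Slc27a1 (FATP1), a fatty acid transport protein with acyl-CoA synthetase activity, read 91.4 and 286 (1.65 ± 0.62), the highest ratio of the 38 genes. Its second probe set agreed in direction with a smaller size, 77.9 and 127 (0.71). Slc27a4 (FATP4), a related protein, read 379 and 617 (0.70 ± 0.51). With poly-A scaling Slc27a1 read 0.92 and Slc27a4 -0.021.

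The peroxins included the lowest gene of the group. Pex19, the cytosolic chaperone and receptor that delivers membrane proteins to the peroxisome, read 995 and 346 (-1.52 ± 0.52), a 2.88-fold lower signal. Its other probe sets read 790 and 338 (-1.22) and 73.6 and 20.8 (-1.83, with the latter under the detection limit), so all 3 were lower, and the bright pair by more than 2-fold. Its partners in membrane protein insertion lay within their local spread. Pex3, the membrane anchor that docks Pex19, read 726 and 848 (0.22 ± 0.51), and its second probe set was level (504 and 519). Pex16, which acts with Pex3 in inserting membrane proteins, read 457 and 366 (-0.32 ± 0.54).

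Of the matrix import receptors and docking genes, 3 were below 0 and Pex13 was above it. Pex5, the receptor for the C-terminal targeting signal, read 1005 and 951 (-0.08 ± 0.47), and its other probe set 845 and 862 (0.03). Pex7, the receptor for the N-terminal signal carried by thiolase, read 845 and 738 (-0.20 ± 0.50). In the docking complex, Pex14 read 828 and 655 (-0.34 ± 0.51) and Pex13 read 2603 and 3745 (0.52 ± 0.41). Pex13 was the single peroxin above its local spread, yet a dim second probe set went from 79.6 to 39.1 (-1.03, the latter under the detection limit).

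Of the RING-finger subunits that ubiquitinate the import receptor, Pex2 read 1613 and 1059 (-0.61 ± 0.46) but was level on its second probe set (97.3 and 97.0), and Pex10 read 163 and 183 (0.16 ± 0.61). The machinery that pulls the receptor back out was flat on its representing probe sets. Pex6, an AAA ATPase, read 477 and 468 (-0.03 ± 0.52), while its 5 probe sets spread from -0.53 to 0.45. Pex26, its membrane anchor, read 182 and 180 (-0.01 ± 0.62). Pex11a, which elongates peroxisomes before division, read 347 and 328 (-0.08 ± 0.56) and 101 and 117 on its other probe set. Apart from Pex19, Pex2 and Pex13, each of the 12 peroxins lay within its local spread. Thus 1 peroxin was higher and 2 were lower by more than the spread, as were 18.3% and 14.8% of all detected genes.

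**Figure D4:**
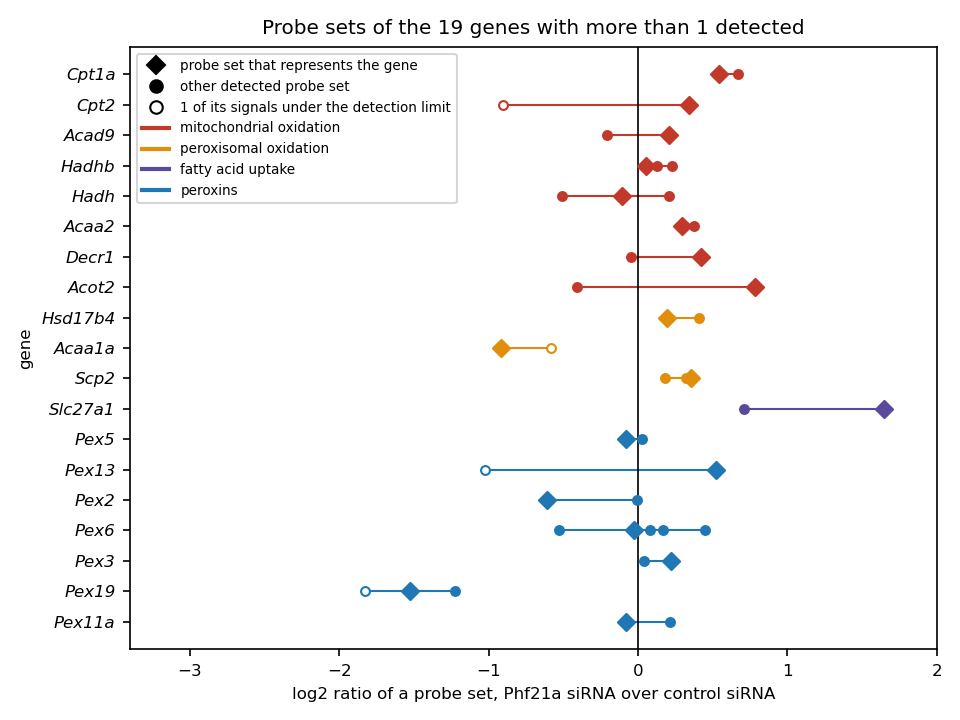
Log2 ratio of every detected probe set of the 19 genes that had more than 1, with the representing probe set as a diamond and open symbols where 1 of the signals was under the detection limit. Probe sets shared a sign in 10 of the 19 genes. The 3 of Pex19 lie between -1.83 and -1.22. The 3 of Cpt1a, all but the diamond ending in _x_at, lie between 0.53 and 0.67 (below 0 with poly-A scaling). Those of Acot2, Cpt2 and Pex13 fall on both sides of 0.

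Agreement between probe sets limits how far a single ratio can be read. Among the 19 members with several detected probe sets, 10 had all of them on the same side of 0, and among the 5597 such genes on the whole array 61.4% did. Probe sets of a gene were read from the same RNA, so their agreement says nothing about the spread between cultures. Counted by probe set, 8 of 66 detected were at least 1.5-fold higher (14.2% of all detected probe sets) and 7 lower (16.1%). Above 0 were 24 of 31 detected probe sets of mitochondrial oxidation and 9 of 23 of the peroxins, and 49.6% of all detected probe sets. With the poly-A scaling 1 of the 19 mitochondrial genes and 0 of the 12 peroxins stayed above 0.

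**Figure D5:**
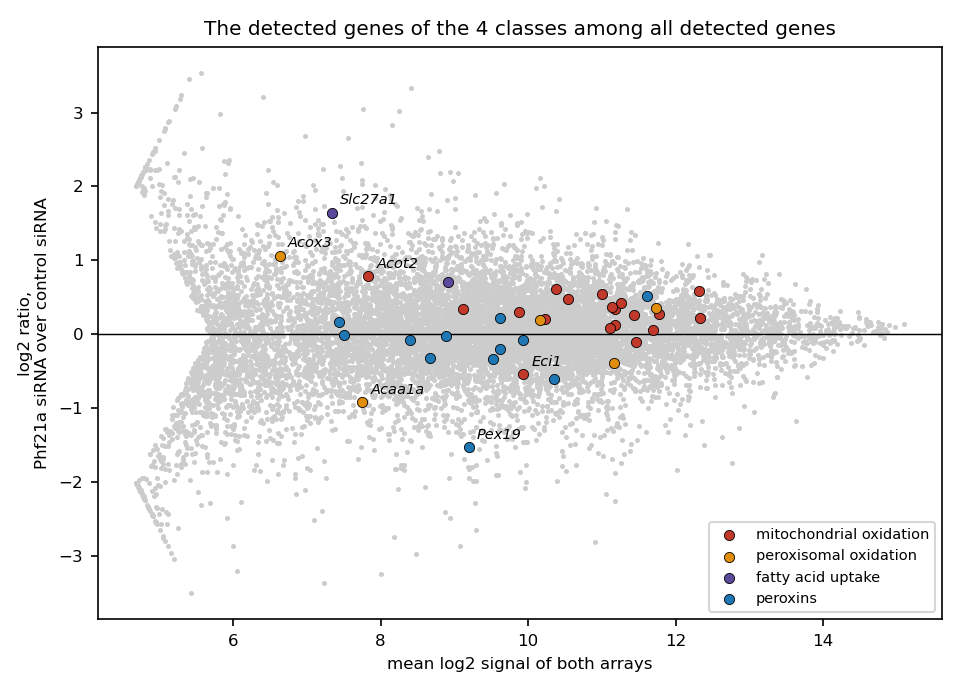
Log2 ratio against mean log2 signal for all 11301 detected genes (grey) and the 38 detected members (coloured by class), under the deposited scaling. Scatter widens toward low signals, where Acox3 (68.8 and 144) and Slc27a1 (91.4 and 286) lie, and Pex19 at -1.52 lies below nearly all genes of like signal.

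Sequence upstream of the genes was looked at for nuclear receptor motifs, since receptors of the PPAR and ERR families are known regulators of fatty acid oxidation. Promoter windows (250 bases before to 50 after a start, RefSeq, GRCm38.p6) were at hand for 33 of the 40 genes, with 39 windows. The receptor half-site AGGTCA, searched on both strands, was in 5 of the 39 windows (12.8%), against 16.3% of 32851 windows of all genes. The extended ERR element TCAAGGTCA, which contains the half-site, was in 0 member windows and in 0.423% of all windows. The paired element AGGTCANAGGTCA was in 0 member windows and in 0.0396% of all windows. The half-site matches are printed with their flanks because 4 of them lie in mitochondrial genes, which supply 16 of the 39 windows. They are read 5′ to 3′ on the gene's strand with the match in capitals (TGACCT is the match on the opposite strand).
Cpt1a, chr19:3323197-3323222: gtttccttacTGACCTcctccccgca
Acadvl, chr11:70015500-70015525: ggatcaccctAGGTCAggtagaatac
Echs1, chr7:140116489-140116514: cagcccgctcAGGTCAcgggtccacc
Acadm, chr3:153944877-153944893: gTGACCTtcgggctccg
Scp2, chr4:108118641-108118666: ctaacacagtAGGTCAaaagaaccca
The matches begin 94 bases before the start in Cpt1a, 87 in Acadvl, 83 in Echs1, 249 in Acadm (the edge of the window) and 109 in Scp2. The log2 ratios of these 5 genes run from 0.12 for Acadm to 0.55 for Cpt1a. Of all 19 mitochondrial genes 17 were above 0, and a link between half-site and ratio was not tested. The share of windows with a half-site was no higher for members than for all genes. Member windows had a median of 60.3% G and C, against 52.7% for all windows, and the shares were not matched for it.

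Other genes of the same pathways, on lists drawn up by role, went both ways. Among 14 detected further genes of mitochondrial fatty acid metabolism, with a median of 0.30, 4 passed 1.5-fold upward (15.2% of all detected genes) and 3 downward (13.9%). Those higher were Acot13, a thioesterase (595 and 2381, far beyond its local spread of 0.46), Acacb, which makes the malonyl-CoA that inhibits Cpt1 (44.9 and 114, the former under the detection limit), Cpt1c, a brain-enriched relative of Cpt1a (664 and 1000, 0.59 ± 0.50), and the dim Acad10 (20.0 and 115), whose second probe set gave -0.97. Those lower were Mcat of mitochondrial fatty acid synthesis (511 and 253, -1.02 ± 0.52), Mlycd, which degrades malonyl-CoA (182 and 93.7, -0.96 ± 0.69), and Acadsb, a dehydrogenase of branched short chains (382 and 251, -0.61 ± 0.56). Slc25a20, the carnitine-acylcarnitine carrier between Cpt1 and Cpt2, was within its spread at 563 and 687 (0.29 ± 0.52).

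Among 23 detected further peroxisomal genes, with a median of 0.06, 3 passed 1.5-fold upward and 2 downward, against the same 15.2% and 13.9%. Those higher were Crot, which exports shortened chains as carnitine esters (1527 and 2407, 0.66 ± 0.46), Cat, the catalase that removes the hydrogen peroxide of the oxidases (2481 and 3757, 0.60 ± 0.41, second probe set 1.16), and Nudt7, a coenzyme A hydrolase (316 and 661, 1.06 ± 0.53, with another probe set at -1.31). Those lower were Acbd5, a membrane tether to the endoplasmic reticulum (1321 and 721, -0.87 ± 0.47), and Pecr, an enoyl-CoA reductase (618 and 399, -0.63 ± 0.51). Of 5 detected further peroxin and division genes 0 were higher and 1 was lower at 1.5-fold, against 15.2% and 13.9%. The lower one was Pex5l, a neuronal relative of Pex5 with signals of 67.5 and 11.5. The latter is under the detection limit and the floor, and with both signals raised to the limit its log2 ratio is -0.40, short of 1.5-fold.

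Of 7 detected regulators of these pathways 3 were at least 1.5-fold higher and 0 lower, against 15.2% and 13.9% of all detected genes. They were the coactivator Ppargc1a (68.6 and 324, 2.24 ± 0.64), its receptor partner Esrra (497 and 804, 0.70 ± 0.53) and Pparg (0.67 ± 0.53). Ppard was level (357 and 354), and Ppara, the receptor best known for inducing oxidation genes in liver, was undetected (12.4 and 21.1).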

How the data were processed

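The authors deposited MAS5 signal intensity per probe set on a linear scale, per the submitters' processing notes, which name no MAS5 version. The 2% trimmed mean of each array was 500. Genes were named from the array's annotation, and 40 of 40 member Entrez numbers matched the RefSeq gene table. Probe sets of several genes stayed outside the group and are quoted where they bear on a member. Signals under the pooled 25th percentile (12.9) were raised to it before log2. For probe sets that represent a gene, no ratio is quoted for a signal under it, except for Pex5l. Its quoted ratio has both signals raised to the detection limit, and its count as lower rests on the signal raised to 12.9. Detection calls were not used here.

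With 1 array per group no test, p-value or interval was computed, and the number of arrays limits the precision. Genes named are all members, Phf21a and the detected genes of the pathway lists past 1.5-fold. Slc25a20, Ppard, Ppara, Acaa1b, Pus10, 4930579G24Rik and the adipocyte and preadipocyte markers other than Pparg were added after their values were seen. So were the searches for the receptor half-site, the CCAAT box and the GC box. The members, lists and alternatives were chosen with earlier results of these data known. Alternatives covered scaling, floor, pseudocount, probe set choice, detection limit, cutoff and the class of Eci2 and Acad9. The scripts were tested on simulated data. Software was matplotlib 3.10.9 (figures), statsmodels 0.14.6 (loess), scipy 1.17.1, and pandas 2.3.3 and numpy 2.4.6 under Python 3.11.15.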

Additional observations from a re-analysis of the deposited data

How the results depend on the processing

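Control scaling moved the values most. With poly-A scaling the medians were -0.43 (mitochondrial oxidation), -0.53 (peroxisomal oxidation), -0.81 (peroxins) and -0.51 (all members), 1 member was at least 1.5-fold higher and 16 were lower, 1 mitochondrial gene and 0 peroxins were above 0, and the members above 0 went from 25 to 3. Among members past 1.5-fold, Acadl (-0.14), Acads (-0.12) and Slc27a4 (-0.021) changed sign. With hybridisation scaling 2 members were higher and 5 lower, 1 peroxin was above 0, and the medians of all members (-0.014) and of peroxisomal oxidation (-0.032) fell below 0. Detection at the 75th percentile left 3 of 30 members higher, since Acot2, Acox3 and Slc27a1 were no longer detected. A 2-fold cutoff left 2 of 38 higher and 1 lower. Leaving out suffixed probe sets (_x_at, _s_at, _a_at) left 1 of 34 lower, with Acaa1a no longer measured. The mitochondrial median stayed 0.24 to 0.33 above that of all detected genes in the 10 alternatives that do not move all genes alike. It was 0.36 to 0.43 above that of the peroxins in the same alternatives. The distance to the peroxins could hardly change with a raised floor, a pseudocount or no detection limit. Both classes were fully detected, with representing signals far above the floor. The distance to peroxisomal oxidation ran from -0.04 (no detection limit) to 0.18. Averaging probe sets moved Acot2 to 0.19 and Pex13 to -0.25, and leaving out suffixed ones moved Pex2 to -0.0040. No paired analysis was possible because each group has 1 array. Low signals limit Acox3, Slc27a1, Ehhadh and Abcd2 most, since the local spread grows as the signal falls.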
